A study of Mus musculus with 12 samples.

Results

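Endothelin signalling was followed through 4 genes: the ligands Edn1 and Edn3, the processing enzyme Ece1 and the receptor Ednrb. They were taken as every probe set that the platform's gene table names with 1 of these symbols, which gave 11 probe sets of 45037 and 4 genes of 18193. Ednra, the receptor gene that completes the family list of 5, has no probe set under that symbol in the table used here and is not analysed here. The family was chosen because Ednrb had been seen higher in EYFP-positive cells of both genotypes, that is, they were selected on their measured differences between sorted fractions. Those differences are therefore described without a test, for all 11 probe sets. The comparisons of mutant with wild-type cells were not part of that stated reason and were tested. Earlier results of these data were, however, known when the members were chosen.

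The arrays came from mouse embryos at embryonic day 8.0, of a line of mixed C57BL/6 and FVB background named ER71 EYFP. There were 4 groups of 3 arrays: EYFP-positive cells and EYFP-negative cells of embryos labelled ER71 mutant, and EYFP-positive cells and EYFP-negative cells of embryos labelled ER71 wildtype, called mutant or wild-type positive and negative cells here. ER71 is now named Etv2, an ETS-family transcription factor that mouse embryos need for blood and endothelium, and EYFP is a yellow fluorescent protein by which the trypsin-released cells were sorted. All groups carry the EYFP line. The labels name neither the sequences that drive EYFP nor which part of Etv2 is altered. They also do not say whether the 3 arrays of a group came from separate embryos or pools. The p-values therefore reflect only how far these arrays spread. That spread may be technical, apart from a difference of sex markers between wild-type arrays given below.

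Endothelins are short peptides that cells release as inactive precursors. Endothelin-converting enzymes, of which Ece1 is the main one in the mouse embryo, cut the precursor to the active peptide. The product of Edn1 activates both G protein-coupled receptors of the family, whereas the product of Edn3 acts mainly through the receptor encoded by Ednrb. In mouse embryos the pair of Edn1 and Ednra patterns the pharyngeal arches and the great vessels, the pair of Edn3 and Ednrb is needed by melanoblasts and enteric neural crest, and endothelium is a classic source of the Edn1 peptide.

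Depth has no meaning for these arrays, and their number limits the precision. Array medians lay between 6.98 and 7.06 log2 and 25th percentiles between 5.62 and 5.69. Within a group, any pair of arrays had r = 0.981 to 0.991 over probe sets, which are not independent replicates. Pairs of arrays from different groups had r = 0.957 to 0.991, so some were as alike as arrays of the same group. Etv2 had log2 values of 7.40, 7.26 and 7.28 in mutant positive cells and 10.72, 10.70 and 11.36 in wild-type positive cells. Negative cells read 7.49, 7.43 and 7.24 (mutant) and 7.58, 7.50 and 7.85 (wild-type), so only the 3 wild-type positive arrays stood high. The Y-linked gene Eif2s3y was at 10.81 and 11.23 on the wild-type positive and negative arrays numbered 1 and at 4.11 to 4.53 on all others. Xist, a female marker, was at 10.33 and 8.19 on the same wild-type arrays and at 13.36 to 13.98 on all others. The wild-type arrays numbered 1 thus held male RNA, while all others, every mutant array among them, read as female. Sex was therefore not balanced between genotypes. Afp, made by visceral endoderm, was at 11.98 on mutant positive array 1 and at 5.02 and 4.03 on arrays 2 and 3.

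The promoters of Edn1 and Ednrb are shown because these genes had different patterns across the groups. Both windows run from 250 bases before to 50 bases after the transcript start of the RefSeq table (GRCm38.p6), that of Edn1 at chr13:42301226-42301525 on the plus strand and that of Ednrb at chr14:103843652-103843951 on the minus strand. Capitals mark matches, on either strand, to GGAA (the core of ETS motifs), AGATAA (bound by the GATA family) and TGACTAA (an AP-1-like motif), and no matches overlap.
Edn1: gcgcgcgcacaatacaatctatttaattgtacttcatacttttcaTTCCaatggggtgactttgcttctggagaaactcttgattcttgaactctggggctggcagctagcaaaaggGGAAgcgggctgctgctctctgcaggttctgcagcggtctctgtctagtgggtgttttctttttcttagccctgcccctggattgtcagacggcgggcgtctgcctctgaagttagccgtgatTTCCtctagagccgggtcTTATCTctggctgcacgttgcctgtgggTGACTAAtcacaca
Ednrb: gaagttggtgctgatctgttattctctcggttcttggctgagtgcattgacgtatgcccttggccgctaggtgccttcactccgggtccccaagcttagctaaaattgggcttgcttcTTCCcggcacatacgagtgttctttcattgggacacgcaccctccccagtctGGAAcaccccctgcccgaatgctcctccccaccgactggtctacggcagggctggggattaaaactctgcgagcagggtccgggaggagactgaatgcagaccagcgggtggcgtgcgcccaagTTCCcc
Edn1 held 3 matches to GGAA, beginning at positions -205, -133 and -10 from the start. It also held 1 GATA match, beginning at position 9, and 1 AP-1-like match, beginning at position 37. Ednrb held 3 matches to GGAA, at -132, -80 and 45, and neither of the other motifs. Of all 32851 promoter windows of this length, 96% held GGAA, 11.2% the GATA motif and 2.35% the AP-1-like motif. The single window of Edn3 held 1 GGAA, and 2 of the 4 windows of Ece1 held 5 in all, with 0 matches to the other motifs in either gene. The choice of these motif letters followed no stated rule, and the matches were not tested against the shares of all windows. A match describes letters in these windows and nothing about binding.

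Edn1, which encodes the endothelin-1 precursor, was lower in mutant positive cells than in wild-type positive cells. Its only probe set, 1451924_a_at, had log2 values of 7.80, 7.97 and 7.54 in mutant positive cells and 9.01, 8.69 and 9.10 in wild-type positive cells. The groups did not overlap. The mean was 7.77 ± 0.21 (SD, n = 3) in mutant positive cells and 8.93 ± 0.22 in wild-type positive cells, so Edn1 was 2.23-fold lower in the mutant (-1.16 ± 0.17 log2, SE, 95% interval -1.53 to -0.79; limma, Benjamini-Hochberg adjusted p = 0.00276). Over 22 alternatives, which leave out each array in turn and both wild-type arrays numbered 1, the difference ran from -1.28 to -1.05 log2 and passed in 22. Edn1 was the 1 probe set of the 11 that passed the threshold of 0.05 in this comparison, in which 4.42% of all 45037 probe sets passed.

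In negative cells Edn1 had 7.45, 7.81 and 7.51 in mutants and 7.77, 7.50 and 7.99 in wild types. These arrays overlapped, and the difference was -0.16 log2 (95% interval -0.53 to 0.21; limma, adjusted p = 0.976). Each wild-type positive array therefore exceeded the remaining 9, the nearest of which was at 7.99, while the other groups, with means of 7.77 (mutant positive), 7.59 (mutant negative) and 7.75 (wild-type negative), overlapped. The genotype difference in positive cells minus that in negative cells was -1.001 ± 0.24 log2 (95% interval -1.53 to -0.47) and did not pass (limma, adjusted p = 0.0861). None of the 8 probe sets tested for it passed, where 1.27% of all probe sets did. In Ednrb this difference was not tested. With same-numbered positive and negative arrays as a random block the adjusted p was 0.0197 when both genotypes were paired and 0.0305 when mutants alone were, and over 21 alternatives it ran from 0.0197 to 0.273. Described without a test, the sorted fractions differed by 0.18 log2 in mutants, where arrays overlapped, and by 1.18 log2, or 2.27-fold, in wild types, where all positive arrays were higher.

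Markers of endothelium and blood moved with Edn1. Of 8 endothelial markers, 7 were lower in mutant positive cells, where the mean log2 value of the list was 7.02 to 7.21, than in wild-type positive cells, where it was 9.44 to 9.76. Cdh5, the endothelial cadherin, ran from 4.86 to 5.09 in mutant positive cells, which is under the 25th percentile of each array, and from 10.04 to 10.35 in wild-type positive cells. All 6 primitive blood markers were lower as well, with a list mean of 5.95 to 6.07 in mutant positive cells and 11.43 to 12.11 in wild-type positive cells. The 3′ minus 5′ difference of the actin control, a sign of RNA quality, was 1.40 to 1.62 log2 in mutant positive cells and 1.54 to 3.05 log2 in wild-type positive cells. The part of these cells and of RNA quality in the Edn1 difference was not tested, and in RNA of sorted fractions fewer cells of a type and less RNA per cell cannot be told apart.

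Edn3, which encodes the endothelin-3 precursor, did not pass in any tested comparison at any of its 4 probe sets. Its brightest, 1441924_x_at, had 8.48, 8.61 and 8.37 in mutant positive cells, 8.31, 8.33 and 7.72 in mutant negative cells, while the wild-type arrays read 8.34, 8.25 and 8.15 (positive) and 8.45, 8.23 and 8.69 (negative). Probe sets whose names end in _x_at or _s_at can also hybridise to related transcripts. The 3 mutant positive arrays lay just above the 3 wild-type positive arrays, with a difference of 0.24 log2 (95% interval -0.13 to 0.62; limma, adjusted p = 0.521). In negative cells the difference was -0.34 log2 (95% interval -0.72 to 0.04; limma, adjusted p = 0.976). The difference between these genotype effects was 0.58 log2 (95% interval 0.05 to 1.12; limma, adjusted p = 0.451).

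The other Edn3 probe sets were dimmer and flatter. The group means of 1438696_at spanned 0.24 log2, those of 1441923_s_at 0.25 log2 and those of 1421136_at 0.12 log2. The last of these read 4.66 to 5.05 on the 12 arrays, below the 25th percentile of every array. Mutant minus wild-type differences in positive cells were 0.04 log2 for 1438696_at, 0.19 log2 for 1441923_s_at and 0.12 log2 for 1421136_at, with adjusted p from 0.465 to 0.939 (limma). Between positive and negative cells, described without a test, the 4 probe sets differed by 0.04 to 0.37 log2 in mutants and by -0.21 to -0.05 log2 in wild types. Edn2, the remaining endothelin gene, read near the 25th percentile as well, with a mean of 5.77 in mutant positive, 5.71 in mutant negative, 5.76 in wild-type positive and 5.65 in wild-type negative cells.

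**Figure D1:**
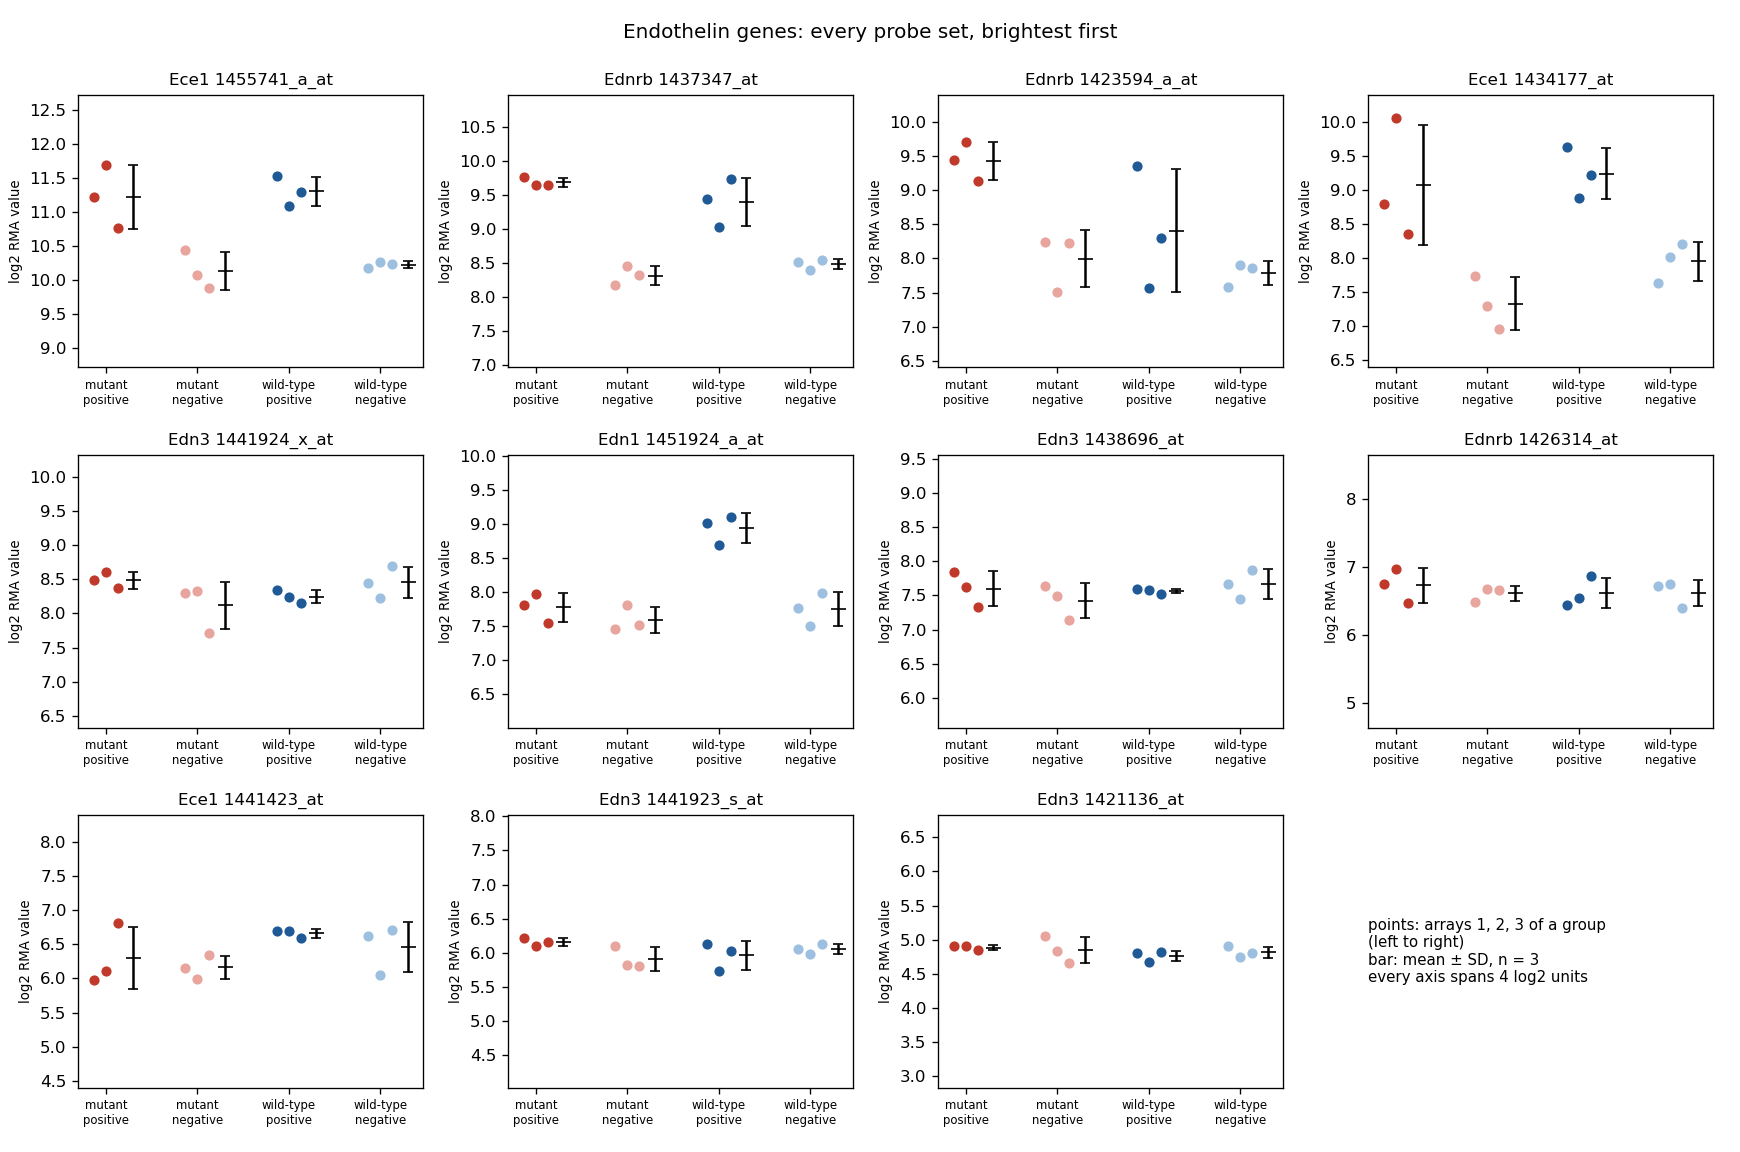
Log2 RMA values of all 11 probe sets of Ece1, Ednrb, Edn3 and Edn1, brightest first, in the 4 groups (points, arrays 1 to 3 from left to right; bars, mean ± SD, n = 3; every axis spans 4 log2 units). Edn1 is high on the 3 wild-type positive arrays alone, at 8.69 to 9.10, whereas the 2 brighter probe sets of Ece1 are higher in positive cells of both genotypes.

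Ece1, the endothelin-converting enzyme, was higher in positive than in negative cells of both genotypes at its 2 brighter probe sets and did not pass between genotypes at any of 3. Its brightest probe set, 1455741_a_at, had log2 values of 11.22, 11.69 and 10.76 in mutant positive cells and 10.44, 10.08 and 9.89 in mutant negative cells. The wild-type arrays read 11.52, 11.09 and 11.29 (positive) and 10.17, 10.27 and 10.25 (negative). The sorted fractions did not overlap in either genotype. Described without a test, the difference was 1.09 log2 (2.12-fold) in mutants and 1.07 log2 (2.10-fold) in wild types.

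A further Ece1 probe set, 1434177_at, gave the same order of groups with wider spread. It had 8.80, 10.06 and 8.35 in mutant positive cells and 7.74, 7.30 and 6.95 in mutant negative cells. The wild-type arrays read 9.63, 8.88 and 9.21 (positive) and 7.64, 8.02 and 8.20 (negative). The fractions again did not overlap, and they differed by 1.74 log2 (3.34-fold) in mutants and by 1.29 log2 (2.44-fold) in wild types. Mutant positive array 2 was the highest of the 12 at both probe sets and the deviations of the arrays from their group means correlated between them at r = 0.95, a description over 12 arrays. The dimmest, 1441423_at, overlapped between fractions, with differences of 0.14 log2 in mutants and 0.20 log2 in wild types. Other cell types differed between the same fractions: the mean log2 value of 5 neural ectoderm markers was 7.41 to 8.70 in mutant positive and 10.97 to 11.13 in mutant negative cells, against 7.43 to 8.81 and 10.64 to 10.90 in the positive and negative cells of wild types. For 5 epithelial markers it was 8.85 to 9.83 and 10.29 to 10.91 in mutants and 8.48 to 8.91 and 10.90 to 11.19 in wild types, again positive and then negative. These 5 did not move together. In mutants 3 were lower in positive cells, 1 did not pass and 1, Krt8, was higher by 1.13 log2 (limma, adjusted p = 0.00655). In wild types 3 were lower, 0 higher and 2 did not pass. The actin 3′ minus 5′ difference was 1.40 to 1.62 log2 in mutant positive and 1.87 to 2.72 log2 in mutant negative cells, which did not overlap, while wild types overlapped at 1.54 to 3.05 log2 (positive) and 1.57 to 3.14 log2 (negative). The part of these markers and of RNA quality in the Ece1 and Ednrb differences was not tested.

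Between genotypes in positive cells, Ece1 differed by -0.08 log2 at 1455741_a_at (95% interval -0.56 to 0.40; limma, adjusted p = 0.897). The difference was -0.17 log2 at 1434177_at (95% interval -1.02 to 0.68; limma, adjusted p = 0.872) and -0.36 log2 at 1441423_at (95% interval -0.86 to 0.13; limma, adjusted p = 0.459). Arrays overlapped at all 3 probe sets. In negative cells the differences were -0.09, -0.62 and -0.30 log2 for the same probe sets in that order, with adjusted p from 0.976 to 0.989 (limma). The difference between the genotype effects at 1455741_a_at was 0.01 log2 (95% interval -0.67 to 0.69; limma, adjusted p = 0.996).

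Ednrb, the B-type endothelin receptor, was higher in positive cells of both genotypes at its brightest probe set, which is the observation that chose the family. At 1437347_at the log2 values were 9.76, 9.65 and 9.64 in mutant positive cells and 8.17, 8.45 and 8.33 in mutant negative cells. Wild-type positive cells had 9.44, 9.03 and 9.73, and wild-type negative cells had 8.51, 8.40 and 8.54. The fractions did not overlap in either genotype, and the difference was 1.37 log2 (2.58-fold) in mutants and 0.92 log2 (1.89-fold) in wild types. Group means ran from 9.68 in mutant positive and 9.40 in wild-type positive cells to 8.48 in wild-type negative and 8.32 in mutant negative cells, and the genotypes overlapped within each fraction.

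The other Ednrb probe sets did not repeat this in full. At 1423594_a_at mutant positive cells had 9.44, 9.71 and 9.14 and mutant negative cells 8.24, 7.51 and 8.23, with no overlap and a difference of 1.43 log2 (2.70-fold). Wild-type positive cells had 9.35, 7.56 and 8.29 and wild-type negative cells 7.58, 7.91 and 7.86, which overlapped, with a difference of 0.62 log2. Without wild-type positive array 1 that difference was 0.15 log2, and without both wild-type arrays numbered 1 it was 0.04 log2. The dimmest, 1426314_at, lay between 6.40 and 6.97 on the 12 arrays and differed by 0.12 log2 in mutants and by -0.00 log2 in wild types.

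**Figure D2:**
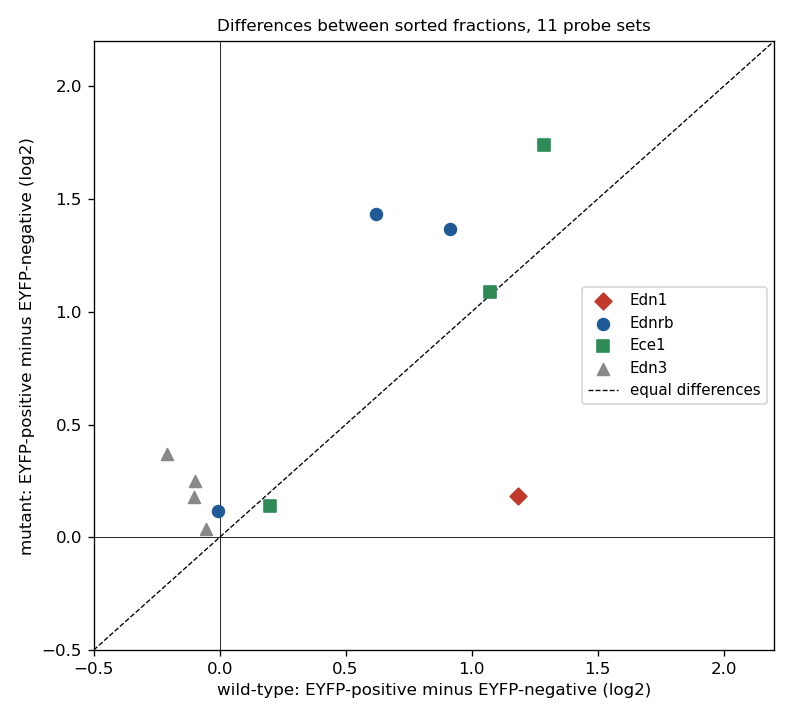
Differences between EYFP-positive and EYFP-negative cells of the 11 probe sets (log2), mutant on the vertical and wild-type on the horizontal axis; each symbol is a probe set and the dashed line marks equal differences. The 2 brighter probe sets of Ece1 and of Ednrb lie at 1.09 to 1.74 in mutants, whereas Edn1 lies at 0.18 in mutants and 1.18 in wild types.

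Between genotypes, Ednrb did not pass at any probe set. In positive cells 1437347_at was 0.28 log2 higher in mutants (95% interval -0.06 to 0.62; limma, adjusted p = 0.387), and the arrays overlapped. At 1423594_a_at the difference was 1.03 log2, or 2.04-fold (95% interval 0.20 to 1.85; limma, adjusted p = 0.174), with 1 wild-type array inside the mutant range. Without that array, wild-type positive array 1, the difference was 1.50 log2 and passed (limma, adjusted p = 0.0166), and without both wild-type arrays numbered 1, which also carried the Y-linked signal, the adjusted p was 0.0288 (limma). Over all 21 alternatives of that difference the adjusted p ran from 0.0166 to 0.394. At 1437347_at wild-type positive array 1 read 9.44, between 9.03 and 9.73 on the others of its group. Deviations of the arrays from their group means correlated between 1437347_at and 1423594_a_at at r = 0.25 over 12 arrays. In negative cells the 3 probe sets differed by -0.17, 0.21 and -0.01 log2, with adjusted p from 0.976 to 0.999 (limma).

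Neural crest markers had a lower mean level in the positive fractions, where Ednrb was high. All 5 are also among the crest partners described further on, and Hand2 is both an arch gene and a heart marker. The mean log2 value of 5 such markers was 8.56 to 8.85 in mutant positive cells and 9.52 to 9.69 in mutant negative cells, and in wild types it was 8.50 to 8.85 (positive) and 9.40 to 9.62 (negative). In mutants 2 of the 5 were lower in positive cells (Pax3 and Tfap2a), 1 was higher (Snai2) and 2 did not pass, among them Sox10, a crest transcription factor (-0.93 log2; limma, adjusted p = 0.0771). In wild types the same 2 were lower and 3 did not pass. Heart and lateral plate markers were high in mutant positive cells, with a mean of 10.89 to 10.96 over 8 genes, against 8.92 to 9.37 in wild-type positive cells, and 8 of 8 were higher in the mutant. Negative cells read 9.39 to 9.64 in mutants and 9.53 to 9.91 in wild types. In positive against negative cells 6 of 8 were higher in mutants, whereas in wild types 0 were higher and 2 lower. Endothelial markers had a higher list mean in positive than in negative cells of both genotypes, as Ednrb had at its brightest probe set. It was 7.02 to 7.21 in mutant positive and 6.39 to 6.55 in mutant negative cells, and in wild types 9.44 to 9.76 (positive) and 6.30 to 6.38 (negative). In mutants 2 of 8 passed, Kdr by 2.57 log2 (limma, adjusted p = 0.000141) and Tek by 2.04 log2 (limma, adjusted p = 0.00334), both endothelial receptors. The other 6 did not pass, and the median difference of the list was 0.08 log2, so most of the list was nearly level in mutants. In wild types 8 of 8 were higher, with a median of 2.86 log2. The part of these cells in the Ednrb values was not tested.

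**Figure D3:**
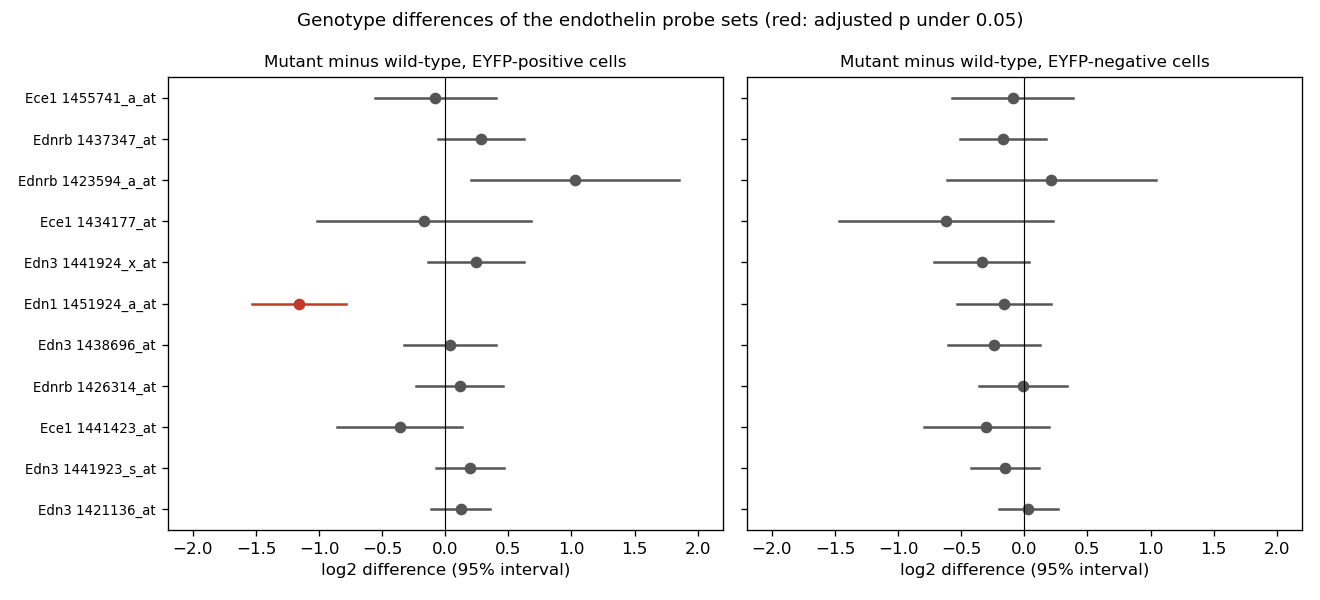
Mutant minus wild-type log2 differences of the 11 probe sets in EYFP-positive cells (left) and EYFP-negative cells (right), with 95% intervals from the fit of all 12 arrays; red marks an adjusted p under 0.05. Edn1 in positive cells is the 1 value in red, at -1.16, and the interval of Ednrb 1423594_a_at in positive cells runs from 0.20 to 1.85.

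In negative cells 0 of the 11 probe sets passed between genotypes, and 0% of all 45037 passed (limma), with 2119 at an unadjusted p under 0.05, 4.71% of them, and 0 of the 11 among these. The same comparison in positive cells had 7970 probe sets at an unadjusted p under 0.05, 17.7% of all, and 2 of the 11, those of Edn1 and Ednrb 1423594_a_at.

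The wider pathway was read from 61 genes in 5 lists, each at its brightest probe set. In mutant against wild-type positive cells 3 of the 61 were higher and 6 lower, where 3.16% of 18193 genes were higher and 3.11% lower, and the median difference was -0.00 log2 for the 61 and 0.01 log2 for all genes. An unadjusted p under 0.05 was reached by 26 of the 61 and by 21.9% of all genes. In negative cells 0 of 61 passed between genotypes, with 0% of all genes higher and 0% lower, and 5 of the 61 and 5.01% of all genes had an unadjusted p under 0.05. In wild-type positive against negative cells 8 were higher and 3 lower, where 3.84% of all genes were higher and 2.65% lower. In mutant positive against negative cells 7 were higher and 4 lower, where 2.37% of all genes were higher and 1.74% lower. With mutant arrays alone paired by number as a random replicate block, 18 of the 61 passed there. With both genotypes paired, 15 passed there and 16 in wild-type positive against negative cells. No test was made of a list, and comparisons that hold the same group share its 3 arrays. Without both wild-type arrays numbered 1, calls of named genes were lost for Ets1 (0.0586) and Plcb4 (0.0639) in mutant against wild-type positive cells, and for Mef2c (0.0527), Tfap2a (0.113), Ets1 (0.127), Sox9 (0.0864), Rgs2 (0.0852), Prkce (0.136) and Klf2 (0.169) in wild-type positive against negative cells (limma, adjusted p).

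Among 7 regulators of the Edn1 gene, 2 fell in mutant positive cells and 3 rose in wild-type positive cells. Foxo1, a forkhead factor, fell by 1.43 ± 0.20 log2 in mutant positive cells against wild-type positive cells (limma, adjusted p = 0.00233) and was 1.14 ± 0.20 log2 higher in positive than in negative cells of wild types (limma, adjusted p = 0.00767). Gata2, a GATA factor of blood and endothelium, had 9.96, 10.03 and 10.11 in mutant positive cells and 10.52, 10.76 and 11.07 in wild-type positive cells. It fell by 0.75 ± 0.18 log2 in the mutant (limma, adjusted p = 0.0364). The call was lost leaving out any mutant positive array, wild-type positive array 2 or 3, or any wild-type negative array (0.0547 to 0.113). It was also lost with the replicate block of mutants alone (0.0561) and with a fixed block by number across groups (0.0576). With only the 2 groups in the fit it was lost as well (0.0762). Klf2, a flow-responsive endothelial factor, was 0.76 ± 0.17 log2 higher in positive than in negative cells of wild types (limma, adjusted p = 0.0287), lost under 7 of 22 alternatives (up to 0.169), among them leaving out wild-type positive array 1 or 3 or wild-type negative array 1, 2 or 3. The remaining regulators did not pass between mutant and wild-type positive cells and went both ways. Jun, an AP-1 component, differed by -1.14 log2 (limma, adjusted p = 0.148), Klf2 by -0.66 log2 (0.0572) and Hif1a by -0.27 log2 (0.479). Smad3 differed by 0.66 log2 (limma, adjusted p = 0.065) and Fos, another AP-1 component, by 0.60 log2 (0.370).

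Of 8 processing and clearance genes, 1 passed between positive cells of the genotypes. Kel, an erythroid membrane protease that can cut endothelin precursors, had a mean of 5.19 in mutant positive cells and 6.66 in wild-type positive cells (-1.47 ± 0.13 log2; limma, adjusted p = 8.61e-05), which moved with the blood markers. With a mutant mean under every array's 25th percentile, the size of that difference is uncertain. Kel was also 1.35 ± 0.13 log2 higher in positive than in negative cells of wild types (limma, adjusted p = 0.000141). Ece2, the other converting enzyme, did not pass in any comparison (-0.09 log2 between positive cells of the genotypes; limma, adjusted p = 0.823). Mme, neprilysin, which degrades endothelins, differed by 1.23 log2 there and did not pass either (limma, adjusted p = 0.152).

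Of 25 genes of receptor signalling, 2 were higher and 2 lower in mutant positive than in wild-type positive cells, and 0 of the 8 listed G protein alpha subunits were among them. The 4 were 3 regulators of G protein signalling, which shorten the active state of G proteins, and a phospholipase. Rgs5, also a mural cell gene, rose by 2.26 ± 0.40 log2 (limma, adjusted p = 0.00907) and Rgs4 by 0.75 ± 0.12 log2 (limma, adjusted p = 0.00505). Both calls were lost with only the 2 compared groups in the fit (0.0852 for Rgs5 and 0.0584 for Rgs4). Rgs2 fell by 1.94 ± 0.27 log2 (limma, adjusted p = 0.00188). Plcb4, a phospholipase C, fell by 1.06 ± 0.22 log2 (limma, adjusted p = 0.0205), a call lost without mutant positive array 3 (0.0617) or wild-type positive array 1 (0.0579). It was also lost with only the 2 compared groups in the fit (0.113).

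Between sorted fractions, 2 signalling genes were higher in the positive cells of wild types, and in mutants 4 were higher and 1 lower. Rgs5 was 3.05 ± 0.40 log2 higher in mutant positive than in mutant negative cells (limma, adjusted p = 0.00271). Prkce, a protein kinase C, was higher by 0.85 ± 0.13 log2 in mutant positive cells (limma, adjusted p = 0.00499; 0.0608 with only the 2 groups in the fit) and by 0.62 ± 0.13 log2 in wild-type positive cells (limma, adjusted p = 0.0176), the wild-type call being lost without wild-type positive array 2 or wild-type negative array 1 or 2 (0.0613 to 0.0751). Rgs2 was 1.45 ± 0.27 log2 higher in positive than in negative cells of wild types (limma, adjusted p = 0.00978), lost without wild-type negative array 2 (0.0503). Prkcb was 1.91 ± 0.31 log2 higher in mutant positive than in mutant negative cells (limma, adjusted p = 0.00805). Plcb4 was lower in mutant positive than in mutant negative cells (-1.11 ± 0.22 log2, limma, adjusted p = 0.0229). The Plcb4 call was lost when mutant positive array 3 or any of the 3 mutant negative arrays was left out (0.0513 to 0.0868). It was also lost with only the 2 groups in the fit (0.0664).

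Of 8 arch genes downstream of Ednra, Hand2, also a heart and limb factor, was the 1 that passed between genotypes. It rose by 1.57 ± 0.16 log2 in mutant positive cells against wild-type positive cells (limma, adjusted p = 0.000187) and by 1.59 ± 0.16 log2 against mutant negative cells (limma, adjusted p = 0.000642). Mef2c, a muscle and endothelial factor, was higher in positive cells by 1.72 ± 0.18 log2 in mutants (limma, adjusted p = 0.000928) and by 1.03 ± 0.18 log2 in wild types (limma, adjusted p = 0.00767). Dlx5, a homeobox gene of the lower arch, fell by 0.96 ± 0.17 log2 in mutant positive against mutant negative cells (limma, adjusted p = 0.013). That call was lost without mutant negative array 2 (0.0513) and with only the 2 groups in the fit (0.109).

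Of 13 neural crest, melanoblast and enteric partners of Ednrb, 1 passed between genotypes: Ets1, an ETS factor also of endothelium, fell by 1.75 ± 0.33 log2 in mutant positive cells against wild-type positive cells (limma, adjusted p = 0.0116). In wild-type positive against negative cells Ets1 rose by 1.75 ± 0.33 log2 (limma, adjusted p = 0.0102; 0.0522 without wild-type negative array 1), while 3 partners fell. Pax3, a dorsal neural tube and somite factor, fell there by 2.03 ± 0.20 log2 (limma, adjusted p = 0.000159) and Tfap2a, a crest and surface ectoderm factor, by 1.95 ± 0.36 log2 (limma, adjusted p = 0.00939). The Tfap2a call was lost with only the 2 groups in the fit (0.0654). Sox9, a crest and cartilage factor, fell by 1.44 ± 0.30 log2 (limma, adjusted p = 0.0184), lost without wild-type positive array 3 or wild-type negative array 1 or 2 (0.0673 to 0.0816). In mutant positive against negative cells Pax3 fell by 2.25 ± 0.20 log2 (limma, adjusted p = 0.000406) and Tfap2a by 2.44 ± 0.36 log2 (limma, adjusted p = 0.00454). Snai2, a mesenchymal and crest factor read at an _x_at probe set, rose by 1.77 ± 0.27 log2 in that comparison (limma, adjusted p = 0.00537; 0.0723 with only the 2 groups in the fit).

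**Figure D4:**
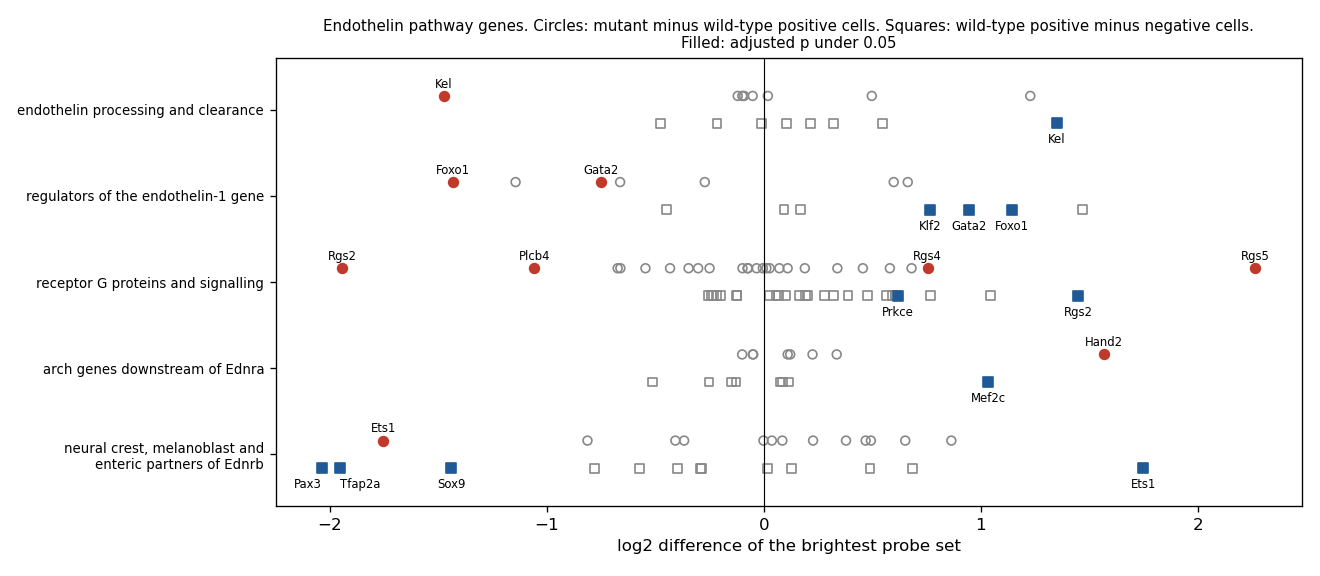
Log2 differences of 61 endothelin pathway genes in 5 lists, for mutant minus wild-type positive cells (circles) and wild-type positive minus negative cells (squares); filled and named symbols have an adjusted p under 0.05. Of the 61 genes, 9 passed in the first comparison and 11 in the second, with Foxo1, Gata2, Kel, Rgs2 and Ets1 lower in the mutant and higher in wild-type positive cells, whose 3 arrays both comparisons share.

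The genes whose values were most like those of each member over the 12 arrays were named from 11421 genes of at least median brightness, as a description. For Edn1 these were Calcrl, a receptor subunit for adrenomedullin (Pearson r = 0.970), the signalling adaptor Sh3bp5 (r = 0.970), Tmem255a (r = 0.970) and the endocytic protein Snx9 (r = 0.968). Calcrl had a mean of 7.48 in mutant positive, 6.95 in mutant negative, 11.96 in wild-type positive and 7.13 in wild-type negative cells. For Ednrb they were Tent5c (r = 0.966), Dok4 (r = 0.950), Asb4 (r = 0.947) and Csrp1 (r = 0.947). Asb4 had a mean of 11.94 in mutant positive, 9.94 in mutant negative, 11.26 in wild-type positive and 10.02 in wild-type negative cells.

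For Ece1 the most alike were Epas1, a hypoxia-inducible factor of endothelium (r = 0.953), Lrp10 (r = 0.951), Sipa1l2 (r = 0.951) and Cavin2, a caveolar protein (r = 0.950). Epas1 had a mean of 10.84 in mutant positive, 9.13 in mutant negative, 11.36 in wild-type positive and 8.99 in wild-type negative cells. These correlations rest on the split between the 4 groups, which the 12 arrays share, and Edn3 is left out because its group means spanned less than 1 log2.

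**Figure D5:**
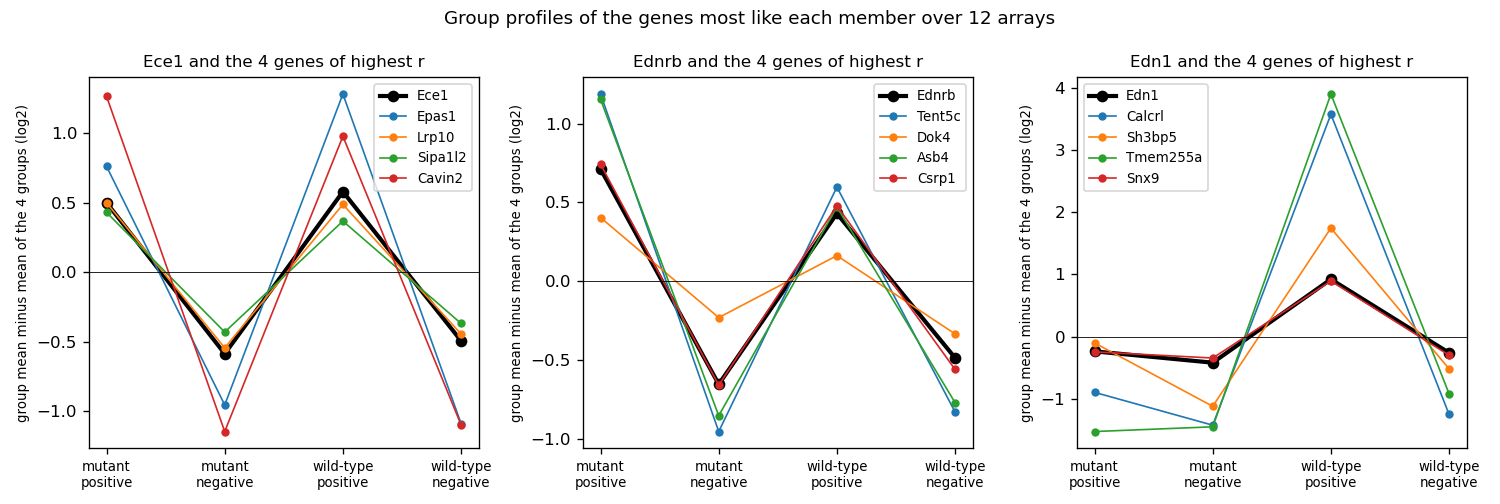
Group means of Ece1, Ednrb and Edn1 (black) and of the 4 genes with the highest Pearson r to each over 12 arrays (colours), each centred on the mean of its 4 groups (log2). Profiles in the first 2 panels are higher in positive cells of both genotypes, and those in the third peak in wild-type positive cells, where Calcrl has 11.96 and Edn1 8.93.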

How the data were processed

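Each array was 1 sample, and 12 samples were used. Per the labels, RNA was extracted with Trizol, amplified more than once and labelled with biotin. The deposited log2 values are the authors' RMA output, according to the submitters' processing notes, which name no version or setting. They were used as deposited, with no filter on dim probe sets. Of 45101 probe sets, 64 array controls were left out. The platform table named 34945 with 1 symbol. Genome positions of probes were not used here.

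Differences were fitted by limma (version 3.58.1, under R version 4.3.3) on 45037 probe sets in 1 model of 4 group means, with 8 residual degrees of freedom. All tests were two-sided, Benjamini-Hochberg adjustment ran over all probe sets of a comparison, and an adjusted p under 0.05 counted as passed. The code was tested on simulated data. Errors are moderated standard errors (SE) or standard deviations (SD). Pathway and marker genes were read at their brightest probe set. Named pathway genes are up to 4 per list and comparison with the smallest p among those that passed; other genes named were chosen after their values were seen. Members and lists were chosen with earlier results of these data known.

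As a check on pairing, deviations of arrays from their group means were correlated over probe sets. Same-numbered arrays of the sorted fractions gave 0.659, 0.414 and 0.520 in mutants and 0.198, 0.0696 and 0.167 in wild types. Differently numbered arrays of the fractions gave -0.452 to -0.026 in mutants and -0.216 to 0.0529 in wild types. Each array was thus most like its same-numbered partner in both genotypes, by a smaller margin in wild types. The Y-linked signal ties the wild-type arrays numbered 1 to each other as well. Random blocks were therefore run with both genotypes paired and, chosen after seeing the data, with mutants alone. Across genotypes the values ran from -0.122 to 0.0394.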

Additional observations from a re-analysis of the deposited data

How the results depend on the processing

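Edn1 in mutant against wild-type positive cells passed under all 22 alternatives (-1.28 to -1.05 log2; limma, adjusted p 0.00139 to 0.0253). With the random replicate block, 1 probe set, Edn1, passed the test of the difference between genotype effects (-1.001 log2, adjusted p = 0.0197 with both genotypes paired and 0.0305 with mutants alone, the second chosen after seeing the data), against 0 otherwise. With arrays left out 1 at a time, 1 to 2 probe sets passed between positive cells, and 2 without both wild-type arrays numbered 1 (Edn1 and Ednrb 1423594_a_at).

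Pathway genes past the threshold in mutant against wild-type positive cells numbered 5 with only the 2 groups in the fit, against 9, and in mutant positive against negative cells 6, or 18 with the replicate block of mutants alone, against 11. In wild-type positive against negative cells they numbered 7 to 12 with 1 array left out and 5 without both wild-type arrays numbered 1, against 11. The causes of these changes were not tested. Fits with only the 2 groups and fits that leave arrays out also hold fewer arrays. With both genotypes paired as a random block, 16 passed in wild-type positive against negative cells and 15 in mutant positive against negative cells, against 11 in each. The replicate blocks moved no other of these counts by over 1.5 times.

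27 of 622 single values changed sign, all of them past the threshold in neither setting. In positive cells between genotypes, with 1 array left out, Ece1 ran from -0.31 to 0.15 (1455741_a_at) and from -0.66 to 0.19 (1434177_at), or 0.031 and 0.025 without both wild-type arrays numbered 1, Edn3 1438696_at from -0.087 to 0.17 and Ednrb 1426314_at from -0.0068 to 0.25. In negative cells Ece1 1455741_a_at ran from -0.24 to 0.031, Ednrb 1426314_at from -0.12 to 0.054 (0.040 without both wild-type arrays numbered 1) and Edn3 1421136_at from -0.071 to 0.12. The difference between genotype effects ran from -0.22 to 0.24 for Ece1 1455741_a_at (-0.031 after quantile normalization), -0.043 to 0.81 for 1434177_at, -0.32 to 0.15 for 1441423_at and -0.0041 to 0.19 for Edn3 1421136_at. The causes were not tested. Values near the 25th percentiles of the arrays have an uncertain size because signal over background was not analysed here.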
